A study of Mus musculus with 16 samples.

Results

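Chemokine receptors and the sphingosine-1-phosphate receptor S1pr1 decide which tissues a T cell enters and when it leaves them. The group of genes described here holds 9 such receptors, Cxcr4, Cxcr5, Cxcr6, Ccr2, Ccr4, Ccr6, Ccr7, Ccr8 and S1pr1. They were taken by symbol from the deposited expression values through the platform annotation, using probe sets that carry a single gene symbol. All 9 members were found, each with 1 probe set, among 22180 genes named in that way, and all 9 were among the 16760 genes bright enough to be tested.

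The receptors were measured in regulatory T cells (Treg cells), the CD4+ T cells that restrain immune responses, on 16 gene arrays in 4 groups of 4. The mice were C57BL/6 and all carried a Cre recombinase expressed with Foxp3, which directs the deletion of floxed Atg7 to cells that express Foxp3. Atg7 encodes an enzyme needed for autophagy, the delivery of cell contents to lysosomes. The controls, Atg7+/flFoxp3-Cre mice, carried 1 floxed and 1 intact copy and are called Atg7+/- here. Both copies were floxed in Atg7fl/flFoxp3-Cre mice, called Atg7-/- here. In each genotype 1 group was left untreated, with no vehicle injection stated, and 1 was given the mTOR inhibitor rapamycin at 4 mg per kg body weight into the peritoneum on each of 5 days. CD4+Foxp3-YFP+ cells were then sorted from spleen and peripheral lymph node lymphocytes and stimulated on bound antibodies to CD3 and CD28 for 4 h. The receptor levels are therefore those of freshly stimulated cells. The labels used here give no ages and do not say which arrays came from separate mice, and the p-values therefore cover the variation among arrays only, some of which may be technical.

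Chemokine receptors are G protein-coupled receptors that steer cells toward a source of their ligand. Naive and central T cells use Ccr7 to enter the T cell zone of lymph nodes and S1pr1 to leave them again, while Treg cells with an effector phenotype carry receptors for ligands made in inflamed, barrier or tumour tissue, such as Ccr4, Ccr6, Ccr8 and Cxcr6. Activation through the T cell receptor is known to change both sets, and mTOR activity is known to lower the transcription factors that maintain Ccr7 and S1pr1 in T cells.

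Values are log2 signals, so a difference of 1 is a doubling on the arrays' scale, and ± is the SD over the 4 arrays of a group. The level of a gene was compared between groups and never with the level of another gene, because probe sets differ in brightness. A difference was called where the adjusted p of limma's test, corrected over the 16760 genes, was under 0.05. Correlations between arrays over all genes tested were 0.9733 to 0.9939. Over the 9 receptors, rapamycin Atg7-/- replicates 1 and 3 lay farthest from their group mean, with a root mean square deviation of 0.502 and 0.418 log2, against 0.273 and 0.288 for the other arrays of that group and 0.069 to 0.236 in the other groups. Replicate 1 was the lowest array of the group for 5 of the 9 receptors and replicate 3 was the highest for 6. Tests of the receptors and counts of the further lists that rest on this group are given with and without both arrays. These 2 arrays were chosen after the data were seen, and they are the extremes for the same receptors. Leaving them out takes the largest deviations of the group out of the spread. The p-values and added calls of that setting are therefore no independent check. The mean log2 level of 7 genes listed as conventional T cell markers was also lowest in replicate 1 (7.84) and highest in replicate 3 (8.83). It was 8.32 and 8.20 in replicates 2 and 4. The lists of conventional T cell and Treg cell markers hold general T cell genes, such as Thy1 and Cd3e, and do not separate these cells. Which cells the RNA of the 7 genes came from, and its part in the receptor values, were not tested. The Atg7 probe set read 6.66 in untreated Atg7+/- and 6.38 in untreated Atg7-/- cells (log2 difference -0.28, adjusted p = 0.299), but it is not known to lie in the floxed exons and checks nothing about the deletion. Foxp3 was bright in both genotypes, at 11.26 and 10.86 in untreated cells.

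The promoter windows of receptors that carried the main changes are shown here, from RefSeq's GRCm38.p6 annotation, 5′ to 3′ on the strand of the gene, from 250 bases before to 50 bases after the annotated start. Cxcr4 (chr1:128592250-128592549, minus strand) and Ccr4 (chr9:114496495-114496794, minus strand) changed with genotype, and Ccr8 (chr9:120091883-120092182, plus strand) and Cxcr6 (chr9:123806227-123806526, plus strand) changed with rapamycin. Capitals mark matches, on either strand, to CACCC (bound by Klf factors), GTAAACA (forkhead factors) or TGANTCA (AP-1 and Batf).
Cxcr4: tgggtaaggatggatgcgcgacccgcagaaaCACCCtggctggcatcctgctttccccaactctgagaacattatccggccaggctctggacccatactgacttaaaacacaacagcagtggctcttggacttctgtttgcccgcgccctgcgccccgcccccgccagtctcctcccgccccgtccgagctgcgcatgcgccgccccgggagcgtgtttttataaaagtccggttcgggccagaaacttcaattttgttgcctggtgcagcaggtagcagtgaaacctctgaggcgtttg
Ccr4: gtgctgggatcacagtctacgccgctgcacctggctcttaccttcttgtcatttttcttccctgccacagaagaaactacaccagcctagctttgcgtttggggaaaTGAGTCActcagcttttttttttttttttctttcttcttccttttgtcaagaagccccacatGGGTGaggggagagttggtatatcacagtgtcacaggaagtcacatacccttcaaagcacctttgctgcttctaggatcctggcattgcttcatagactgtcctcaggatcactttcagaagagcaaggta
Ccr8: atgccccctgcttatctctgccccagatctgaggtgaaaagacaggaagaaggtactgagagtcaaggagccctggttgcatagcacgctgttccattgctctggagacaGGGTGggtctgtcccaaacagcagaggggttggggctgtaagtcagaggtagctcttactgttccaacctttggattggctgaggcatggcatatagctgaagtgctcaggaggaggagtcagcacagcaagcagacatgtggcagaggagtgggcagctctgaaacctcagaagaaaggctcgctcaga
Cxcr6: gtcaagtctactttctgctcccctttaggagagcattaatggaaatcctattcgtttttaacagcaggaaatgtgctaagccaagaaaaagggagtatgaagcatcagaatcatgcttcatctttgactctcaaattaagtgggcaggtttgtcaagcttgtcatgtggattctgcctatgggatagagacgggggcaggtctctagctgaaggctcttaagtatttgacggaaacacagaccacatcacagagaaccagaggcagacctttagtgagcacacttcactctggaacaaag

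CACCC letters were found at position -219 of the Cxcr4 window, and the reverse complement GGGTG at -81 of Ccr4 and -140 of Ccr8, positions being those of the first letter counted from the start site. CACCC is common, in 57.5% of the 32851 promoter windows of this length. TGANTCA was found in 1 of the 7 receptor windows, at -143 of Ccr4, and in 7.8% of all windows. GTAAACA was in none of the 7 receptor windows and in 3.6% of all windows. A further search for TTCNNNGAA, the letters bound by STAT factors, gave matches only in Ccr6, at -157 and -120, and in 8.3% of all windows. No match overlapped another. The windows of 6 receptors were searched, Ccr6 having 2 annotated starts. The sequences used held no window for Ccr7, Cxcr5 or S1pr1, so the search planned at the start, of Ccr7 and S1pr1, could not be made. GC content was 59.3% for Cxcr4, 54.0% for Ccr8, 46.3% for Ccr4 and 44.3% for Cxcr6, beside a median of 52.7% over all windows. A match of letters is a description of the sequence only.

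Loss of both Atg7 copies went with lower Cxcr4 and Ccr7 in stimulated Treg cells, with or without rapamycin, and with higher Ccr4 in untreated cells. The Ccr7 call under rapamycin was lost in 8 of 27 alternative analyses and the Ccr4 call in 5 of 26. Here and below, the alternatives include leaving out single arrays of groups not compared, which cannot change the difference itself. With only the 2 rapamycin groups in the fit neither Cxcr4 nor Ccr7 was called (limma's adjusted p = 0.0644 and 0.147). Of the 9 receptors 1 was called higher and 2 were called lower in untreated Atg7-/- cells, where 1.75% of all genes tested were called higher and 1.39% lower. The arrays of both genotypes did not overlap for 5 of the 9 receptors (Cxcr4, Ccr7, Ccr4, Ccr6 and Ccr8), and for 14.1% of all genes. The median difference over the receptors was -0.10 log2, beside 0.022 over all genes. Bulk RNA cannot tell fewer cells that carry a receptor apart from less receptor RNA in each cell, here or in the results that follow.

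Cxcr4 is the receptor for Cxcl12, the chemokine that holds lymphocytes in bone marrow and guides them in lymphoid tissue. Its gene is on chromosome 1, and its probe set (17226593) gave 9.75, 9.70, 9.89 and 9.70 on the 4 untreated Atg7+/- arrays and 8.62, 8.77, 8.72 and 8.89 on the 4 untreated Atg7-/- arrays. Every Atg7-/- array lay below every Atg7+/- array. The means were 9.76 ± 0.0927 and 8.75 ± 0.11 (n = 4 each), and Cxcr4 fell by 1.01 log2 (SE 0.127, 2.01-fold, adjusted p = 0.000553). Under rapamycin the Atg7+/- arrays read 9.58, 9.82, 10.19 and 10.02 and the Atg7-/- arrays 9.09, 9.09, 9.42 and 8.85. Again the genotypes did not overlap. Cxcr4 was lower by 0.79 log2 in the Atg7-/- cells, with a log2 difference of -0.79 (95% interval -1.06 to -0.52, adjusted p = 0.0052). The difference was -0.93 (adjusted p = 0.007) without rapamycin Atg7-/- replicates 1 and 3, and with only these 2 groups in the fit the call was lost (-0.79, adjusted p = 0.0644). Rapamycin itself gave Cxcr4 differences of 0.14 in Atg7+/- cells (adjusted p = 0.49) and 0.36 in Atg7-/- cells (adjusted p = 0.0539), neither called. The second was called in 7 of 27 alternative analyses, with an adjusted p of 0.0269 at the lowest, and was 0.22 (adjusted p = 0.314) without rapamycin Atg7-/- replicates 1 and 3. In order of level the groups were rapamycin Atg7+/- (9.9 ± 0.262), untreated Atg7+/-, rapamycin Atg7-/- (9.11 ± 0.234) and untreated Atg7-/-. The step between the Atg7+/- groups and the step between the Atg7-/- groups did not pass the test.

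Ccr7, on chromosome 11, is the receptor for Ccl19 and Ccl21 and brings T cells into lymph nodes. Its probe set (17268972) gave 10.64, 10.67, 10.63 and 10.67 on the untreated Atg7+/- arrays and 9.92, 9.76, 9.93 and 9.71 on the untreated Atg7-/- arrays. The control arrays were nearly identical and all lay above the Atg7-/- arrays. Ccr7 fell by 0.82 log2, from 10.65 ± 0.0222 to 9.83 ± 0.11 (SE 0.115, 1.76-fold, adjusted p = 0.000786). With rapamycin its levels were 10.50, 10.96, 10.85 and 10.84 in Atg7+/- cells and 10.18, 10.58, 10.42 and 10.05 in Atg7-/- cells. Here the groups overlapped, since Atg7-/- replicate 2 lay above Atg7+/- replicate 1. The log2 difference was -0.48 (95% interval -0.73 to -0.24, 1.40-fold, adjusted p = 0.0301). This call was fragile. It was lost without rapamycin Atg7+/- replicate 2 (adjusted p = 0.126), 3 (0.0521) or 4 (0.0678), and without Atg7-/- replicate 1 (0.0619), 4 (0.0889) or both 1 and 3 (-0.47, adjusted p = 0.16). It was also lost with only the 2 groups in the fit (adjusted p = 0.147) and with arrays centred on their median (-0.42, adjusted p = 0.0793). The untreated Ccr7 and Cxcr4 differences, by contrast, kept adjusted p-values of at most 0.00406 and 0.00283 in the 26 alternative analyses of that comparison.

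Ccr7 was also higher with rapamycin in Atg7-/- cells. It rose from 9.83 ± 0.11 to 10.31 ± 0.237, a difference of 0.48 log2 (95% interval 0.23 to 0.72, adjusted p = 0.00741), and all 4 rapamycin arrays lay above all 4 untreated arrays. It was 0.49 (adjusted p = 0.0292) without rapamycin Atg7-/- replicates 1 and 3. In Atg7+/- cells the Ccr7 difference was 0.14 (95% interval -0.10 to 0.38, adjusted p = 0.454). The rapamycin differences of the genotypes themselves differed by 0.34 log2 (95% interval -0.01 to 0.68, unadjusted p = 0.0541, adjusted p = 0.796), so a genotype-dependent response of Ccr7 was not shown. Rapamycin Atg7-/- cells remained below untreated Atg7+/- cells in Ccr7 by a log2 difference of -0.34 (adjusted p = 0.0475), with no overlap of arrays, but 16 of 27 alternative analyses lost this call, with adjusted p-values up to 0.154.

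S1pr1, on chromosome 3, is the receptor through which lymphocytes sense sphingosine-1-phosphate and leave lymphoid organs. Its probe set (17409621) gave 8.06, 8.05, 8.09 and 7.69 in untreated Atg7+/- cells and 7.49, 7.72, 7.64 and 7.31 in untreated Atg7-/- cells. Under rapamycin it gave 7.68, 8.49, 8.48 and 8.15 in Atg7+/- cells and 7.26, 8.44, 8.57 and 7.61 in Atg7-/- cells. The groups overlapped in every comparison, and the rapamycin Atg7-/- arrays fell into a low and a high pair. None of the S1pr1 differences was called. The untreated genotype difference was -0.43 (95% interval -0.93 to 0.07, adjusted p = 0.369), which leaves room for a change of up to 0.93 log2, and the rapamycin difference was 0.23 in Atg7+/- and 0.43 in Atg7-/- cells (adjusted p = 0.573 and 0.214). Without rapamycin Atg7-/- replicate 1 alone the last value was 0.66 and was called (adjusted p = 0.0385). Without replicates 1 and 3 it was 0.48 (adjusted p = 0.161). The SD of S1pr1 was 0.634 in rapamycin Atg7-/- cells, beside 0.182 in untreated Atg7-/- cells.

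**Figure D1:**
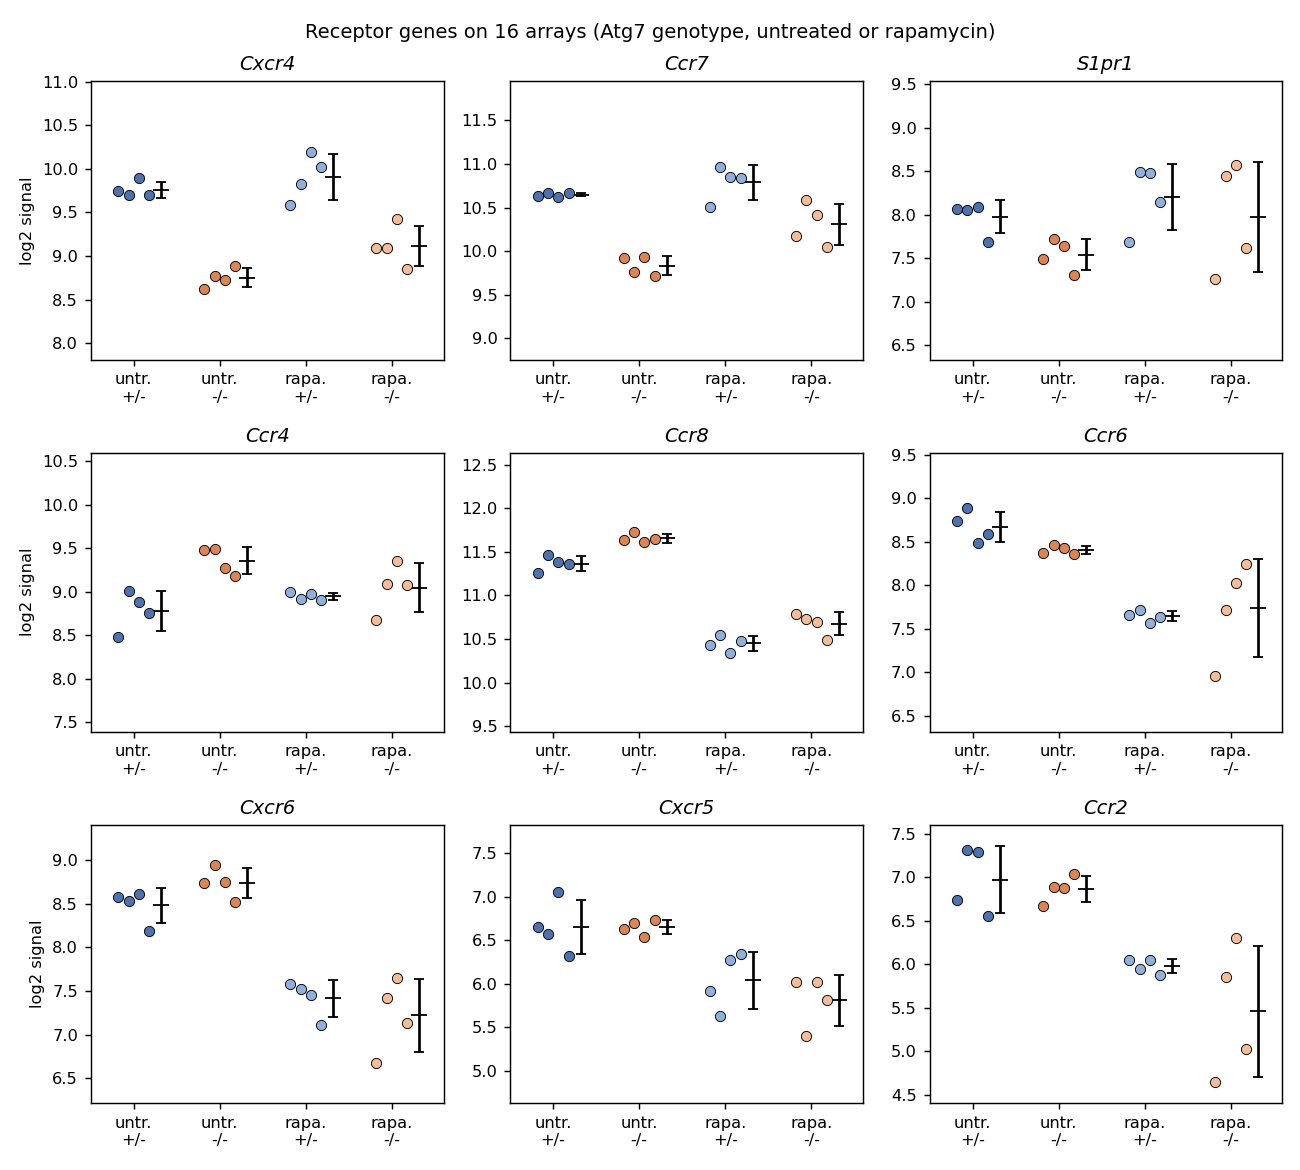
Log2 signal of each of the 9 receptor genes on the 16 arrays. Each dot is 1 array, in replicate order from left to right, and the bar beside the dots is the mean ± SD of the 4 arrays. The groups on the horizontal axis are untreated (untr.) or rapamycin (rapa.) cells of Atg7+/- or Atg7-/- mice, and every vertical axis spans the same number of log2 units. Cxcr4 and Ccr7 step down with genotype in untreated cells, while Ccr8, Ccr6, Cxcr6, Cxcr5 and Ccr2 step down with rapamycin.

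Ccr4, on chromosome 9, is the receptor for Ccl17 and Ccl22, ligands that draw Treg cells to skin and to dendritic cells. It was the receptor called higher in untreated Atg7-/- cells. The probe set (17531887) gave 8.48, 9.01, 8.89 and 8.76 in untreated Atg7+/- cells and 9.49, 9.49, 9.27 and 9.19 in untreated Atg7-/- cells. All Atg7-/- arrays lay above all Atg7+/- arrays. Ccr4 rose by 0.57 log2, from 8.78 ± 0.23 to 9.36 ± 0.154 (SE 0.131, 1.49-fold, adjusted p = 0.0212). The call was lost with arrays centred on their median (adjusted p = 0.052) and without untreated Atg7+/- replicate 1 (0.47, adjusted p = 0.0804) or 4 (adjusted p = 0.0602) or untreated Atg7-/- replicate 1 (adjusted p = 0.0714) or 2 (adjusted p = 0.0602). Under rapamycin the Atg7+/- arrays read 8.99, 8.91, 8.98 and 8.91 and the Atg7-/- arrays 8.68, 9.08, 9.35 and 9.08. These groups overlapped, with the low array again replicate 1. The genotype difference of Ccr4 there was 0.10 (95% interval -0.18 to 0.37, adjusted p = 0.764), and 0.13 (adjusted p = 0.746) without Atg7-/- replicates 1 and 3. Rapamycin gave 0.16 in Atg7+/- cells and -0.31 in Atg7-/- cells (adjusted p = 0.443 and 0.101). Those differed by -0.48 log2 (95% interval -0.87 to -0.09), which was the smallest unadjusted p among the receptors for this test (0.0196) and did not pass after adjustment (0.736). The Ccr4 difference in Atg7-/- cells was -0.41 and was called without rapamycin Atg7-/- replicate 3 (adjusted p = 0.0313), and was -0.28 (adjusted p = 0.159) without replicates 1 and 3.

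Ccr8, on chromosome 9, is the receptor for Ccl1 and a marker of Treg cells in tissues and tumours. Its probe set (17523158) gave 11.26, 11.47, 11.38 and 11.36 in untreated Atg7+/- cells and 11.64, 11.73, 11.61 and 11.65 in untreated Atg7-/- cells. Every Atg7-/- array was the higher, yet the difference of 0.29 log2 (95% interval 0.12 to 0.47) did not pass after adjustment (adjusted p = 0.0643). It passed in 4 of 26 alternative analyses, with an adjusted p of 0.0111 at the lowest. With rapamycin its levels were 10.43, 10.54, 10.34 and 10.47 in Atg7+/- cells and 10.79, 10.73, 10.70 and 10.49 in Atg7-/- cells. The genotype difference was 0.23 log2 (adjusted p = 0.143), with overlap, and 0.16 (adjusted p = 0.561) without Atg7-/- replicates 1 and 3.

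Between genotypes under rapamycin 0 of the 9 receptors were called higher by limma's test and 2 were called lower (Cxcr4 and Ccr7), with 3 at an unadjusted p under 0.05. Over all genes tested 1.91% were called higher and 1.33% lower. The arrays did not overlap for 1 receptor, Cxcr4, and for 9.77% of all genes. Without rapamycin Atg7-/- replicates 1 and 3 only Cxcr4 of the members was called, and with only the 2 groups in the fit 0 members were. The median receptor difference was -0.23 log2, beside 0.017 over all genes. Ccr2, Cxcr5 and Cxcr6 were lower by mean in Atg7-/- cells under rapamycin, with differences of -0.52, -0.23 and -0.20, and none of these passed (adjusted p = 0.3, 0.528 and 0.603). Without replicates 1 and 3 they were -0.54, -0.44 and -0.14 (adjusted p = 0.306, 0.384 and 0.773), with 0.33 for Ccr6 and -0.17 for S1pr1 (adjusted p = 0.302 and 0.818). In untreated cells their genotype differences were -0.10, 0.00 and 0.26 (adjusted p = 0.888, 1 and 0.466), and that of Ccr6 was -0.27 (adjusted p = 0.491).

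Some genes of the cell type marker lists differed between genotypes. Of 9 listed CD8 T and NK cell markers 8 were tested, and Klrk1 was too dim to test. In untreated Atg7-/- cells 2 were called higher, Nkg7 by 0.86 and Gzma by 1.14 log2. The other 6 were not called, and the list median was 0.09 log2, beside 0.022 over all genes. Of all genes tested 1.75% were called higher and 1.39% lower between untreated genotypes. Gzma was tested only through its level in Atg7-/- cells, since its mean of 3.54 in untreated Atg7+/- cells was under the value of 3.549 that a gene had to exceed in some group. The summed linear signal of the 9 listed markers was 396 to 409 on the untreated Atg7+/- arrays and 533 to 568 on the untreated Atg7-/- arrays. Of the 7 conventional T cell markers tested, Themis was called higher by 1.36 log2, and the summed signal of the list was 4620 to 4940 and 5190 to 6020. The dim B cell markers Ms4a1 and Cr2 and the dim myeloid marker Itgam did not reach the level for testing, and none of 6 monocyte and macrophage markers tested was called in any comparison. Under rapamycin Nkg7 (0.94) and Cd8b1 (0.72) were called higher in Atg7-/- cells, at a summed signal of 294 to 349 on Atg7+/- and 453 to 499 on Atg7-/- arrays. The other 6 CD8 T and NK cell markers tested were not called there, and the list median was 0.12 log2, beside 0.017 over all genes. Of all genes tested 1.91% were called higher and 1.33% lower between genotypes under rapamycin. Without replicates 1 and 3 Cd8b1 was still called (0.76, adjusted p = 0.0148) and Nkg7 was not (0.84, adjusted p = 0.0611). Of the conventional T cell markers Cd40lg was called higher there with all arrays (0.59, adjusted p = 0.0301), and without those 2 arrays Il21 was called (0.66, adjusted p = 0.0332) in place of Cd40lg (0.57, adjusted p = 0.0581). Zbtb46 was the 1 of 5 dendritic cell markers called between untreated genotypes (-0.41), and none of 6 neutrophil markers was called there by limma's test, S100a8 giving 1.05 (adjusted p = 0.301). Of the 7 Treg cell markers Foxp3 was called lower in untreated Atg7-/- cells, with a log2 difference of -0.40 (adjusted p = 0.0355). The part of these shifts in the receptor differences was not tested.

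Rapamycin went with lower Ccr8, Cxcr6, Ccr6, Ccr2 and Cxcr5 in both genotypes. In Atg7+/- cells 5 of 9 receptors were called lower and 0 higher by limma's test, the same 5 being those with an unadjusted p under 0.05. Over all genes tested 8.11% were called lower and 6.03% higher. The arrays did not overlap for 4 receptors (Ccr8, Cxcr6, Ccr6 and Ccr2), and for 22.7% of all genes. In Atg7-/- cells the same 5 receptors were called lower and Ccr7 was called higher, where 11.1% of all genes were called lower and 8.83% higher. There the arrays did not overlap for 6 receptors and for 20.4% of all genes. Median receptor differences were -0.61 and -0.67 log2, beside -0.035 and -0.04 over all genes. The comparisons in the 2 genotypes use different arrays, while each shares its untreated arrays with the genotype comparison above.

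**Figure D2:**
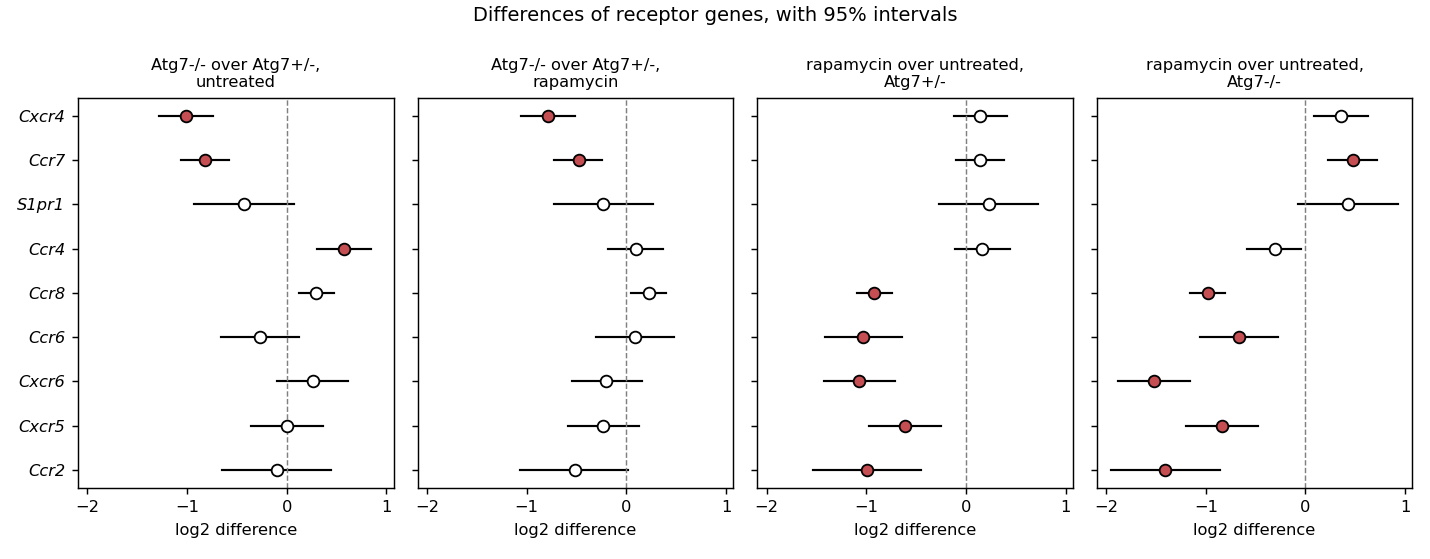
Log2 differences of the 9 receptor genes (horizontal axis) in 4 comparisons of 2 groups, with 95% intervals from limma's fit. Filled points have an adjusted p under 0.05 over the 16760 genes. The points of Cxcr4 and Ccr7 lie left of 0 in both genotype panels, and those of Ccr8, Ccr6, Cxcr6, Cxcr5 and Ccr2 lie left of 0 in both rapamycin panels.

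Ccr8 showed the smallest p-value of the 9 receptors for rapamycin. In Atg7+/- cells it fell from 11.37 ± 0.0877 to 10.45 ± 0.0834 and in Atg7-/- cells from 11.66 ± 0.0507 to 10.68 ± 0.132. No rapamycin array reached an untreated array of either genotype. The differences were -0.92 log2 (SE 0.0833, 1.89-fold, adjusted p = 1.36e-05) and -0.98 log2 (1.98-fold, adjusted p = 1.79e-06). In order of level the groups were untreated Atg7-/-, untreated Atg7+/-, rapamycin Atg7-/- and rapamycin Atg7+/-, and only the step between untreated Atg7+/- and rapamycin Atg7-/- passed the test (-0.69, adjusted p = 4.28e-05). The rapamycin differences of the genotypes differed by -0.06 log2, with a 95% interval of -0.31 to 0.18. Without rapamycin Atg7-/- replicates 1 and 3 the Ccr8 difference in Atg7-/- cells was -1.05 (adjusted p = 1.69e-05).

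Cxcr6, on chromosome 9, is the receptor for Cxcl16, which is made by antigen-presenting cells and endothelium and retains T cells in tissues such as liver. Its probe set (17523642) gave 8.58, 8.54, 8.62 and 8.19 in untreated and 7.57, 7.53, 7.46 and 7.10 in rapamycin Atg7+/- cells. The Atg7-/- arrays read 8.74, 8.95, 8.75 and 8.52 untreated and 6.67, 7.42, 7.65 and 7.14 with rapamycin. The treated and untreated arrays were apart in both genotypes. Cxcr6 fell by 1.07 log2 in Atg7+/- cells (SE 0.169, 2.09-fold, adjusted p = 0.000657) and by 1.52 log2 in Atg7-/- cells (2.87-fold, adjusted p = 1.7e-05), the largest mean differences of the 9 receptors in these comparisons. The second value was -1.46 (adjusted p = 3.45e-05) without replicates 1 and 3. The genotypes' rapamycin differences in Cxcr6 differed by -0.46 log2 (95% interval -0.96 to 0.05, adjusted p = 0.797).

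Ccr6, on chromosome 17, is the receptor for Ccl20 and is found on effector Treg cells and T cells of mucosal tissue. Its probe set (17333066) gave 8.74, 8.88, 8.49 and 8.59 in untreated and 7.66, 7.72, 7.57 and 7.64 in rapamycin Atg7+/- cells. It gave 8.37, 8.46, 8.43 and 8.36 in untreated and 6.96, 7.72, 8.03 and 8.25 in rapamycin Atg7-/- cells. Rapamycin arrays lay below untreated arrays in both genotypes, narrowly so for Atg7-/- replicate 4. Ccr6 fell by 1.03 log2 in Atg7+/- cells (SE 0.184, 2.04-fold, adjusted p = 0.00166). In Atg7-/- cells the difference was -0.67 log2 (1.59-fold, adjusted p = 0.0163), and this value depended on single arrays. It was -0.42 (adjusted p = 0.0398) without replicates 1 and 3 of that group, and with only the 2 groups in the fit the call was lost (adjusted p = 0.0643). Over all alternative analyses this Ccr6 difference in Atg7-/- cells ran from -0.84 to -0.41.

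Ccr2, on chromosome 9, is the receptor for Ccl2 and directs monocytes and activated T cells to inflamed tissue. Its probe set (17523650) gave 6.74, 7.31, 7.28 and 6.56 in untreated and 6.05, 5.94, 6.05 and 5.88 in rapamycin Atg7+/- cells. In Atg7-/- cells it gave 6.67, 6.89, 6.88 and 7.04 untreated and 4.65, 5.86, 6.30 and 5.03 with rapamycin. The treated arrays lay below the untreated arrays in both genotypes, and the rapamycin Atg7-/- arrays had the widest spread of any receptor and group (SD 0.752). Ccr2 fell by 0.99 log2 in Atg7+/- cells (SE 0.259, 1.99-fold, adjusted p = 0.0169) and by 1.41 log2 in Atg7-/- cells (2.65-fold, adjusted p = 0.00118). The first call was lost without untreated Atg7+/- replicate 2 (-0.88, adjusted p = 0.0545) or 3 (-0.89, adjusted p = 0.0534), and the second was -1.42 (adjusted p = 0.000554) without rapamycin Atg7-/- replicates 1 and 3.

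Cxcr5, on chromosome 9, is the receptor for Cxcl13 that guides follicular T cells, including follicular regulatory cells, toward B cells. Its probe set (17526310) gave 6.66, 6.57, 7.06 and 6.32 in untreated and 5.92, 5.63, 6.27 and 6.34 in rapamycin Atg7+/- cells. The lowest untreated array lay just below the highest rapamycin array, so the groups overlapped. In Atg7-/- cells the values were 6.63, 6.70, 6.54 and 6.73 untreated and 6.02, 5.40, 6.02 and 5.81 with rapamycin, with no overlap. Cxcr5 fell by 0.61 log2 in Atg7+/- cells (SE 0.17, 1.53-fold, adjusted p = 0.0236) and by 0.84 log2 in Atg7-/- cells (1.79-fold, adjusted p = 0.00244). The first call was lost without untreated Atg7+/- replicate 3 (-0.47, adjusted p = 0.0842), or rapamycin Atg7+/- replicate 1 (-0.57, adjusted p = 0.0652) or 2 (-0.47, adjusted p = 0.0865). Without untreated Atg7+/- replicate 3 the call of Ccr2 was lost as well, and 3 members were called in place of 5. Without rapamycin Atg7-/- replicates 1 and 3 the Cxcr5 difference in Atg7-/- cells was -1.05 (adjusted p = 0.00271), and 6 members were called there as before.

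Some genes of the cell type marker lists changed with rapamycin, Treg cell markers among them. The arrays do not show which cells the RNA of these genes came from. Of the 7 conventional T cell markers tested, 3 were called lower and Il7r was called higher in each genotype. Those lower were Cd40lg, Thy1 and Il2 in Atg7+/- cells and Cd40lg, Thy1 and Themis in Atg7-/- cells. Thy1 had differences of -0.88 and -1.01 log2. Over all genes tested 8.11% were called lower and 6.03% higher in Atg7+/- cells, and 11.1% and 8.83% in Atg7-/- cells. On Atg7+/- arrays the summed linear signal of the list went from 4620 to 4940 untreated to 2980 to 3560 with rapamycin. On Atg7-/- arrays it went from 5190 to 6020 untreated to 2860 to 5480 with rapamycin. Of the 7 Treg cell markers Cd4 (-0.67 and -0.75) and Cd3e (-0.55 and -0.35) were called lower in both genotypes. Tnfrsf18 was called higher in both (0.29 and 0.26), and Ctla4 lower in Atg7-/- cells (-0.37). The summed signal of this list was 13700 to 14700 untreated and 13600 to 14700 with rapamycin on Atg7+/- arrays. On Atg7-/- arrays it was 13200 to 14700 and 13000 to 13400. The mean log2 level of the same list was 10.70 to 10.81 untreated and 10.61 to 10.67 with rapamycin on Atg7+/- arrays. On Atg7-/- arrays that mean was 10.66 to 10.83 and 10.45 to 10.63. Treated and untreated arrays did not overlap in this mean in either genotype. Of 4 B cell markers tested, Pax5 was called lower in both genotypes (-0.30 and -0.52), at a summed signal of the list of no more than 135 on any array.

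Of the 8 CD8 T and NK cell markers tested, Gzma was called lower with rapamycin in Atg7-/- cells (-1.06, adjusted p = 0.00574). Over all genes tested 11.1% were called lower there. The summed signal of that list was 396 to 409 untreated and 294 to 349 with rapamycin on Atg7+/- arrays, and 533 to 568 and 453 to 499 on Atg7-/- arrays. Of the dendritic cell markers Xcr1 was called lower in both genotypes (-1.10 in each) and Flt3 higher in Atg7+/- cells (0.55, adjusted p = 0.0142), at a summed signal of 195 to 213 untreated and 168 to 217 with rapamycin on Atg7+/- arrays, and 189 to 215 and 138 to 195 on Atg7-/- arrays. Of the neutrophil markers Mpo was called lower in Atg7-/- cells (-0.40, adjusted p = 0.0377), the list summing to 110 to 190 untreated and 105 to 164 with rapamycin on Atg7+/- arrays, and to 193 to 242 and 112 to 388 on Atg7-/- arrays. Calls in Atg7-/- cells changed without rapamycin Atg7-/- replicates 1 and 3 for Ctla4, which was lost (-0.25, adjusted p = 0.0567), and for Il21 (-0.89), S100a8 (-1.55) and S100a9 (-1.23), which were called lower. The part of these markers in the receptor differences was not tested.

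Neither genotype was shown to respond to rapamycin differently in any of the 9 receptors. The test of the difference between the rapamycin effects called 0 receptors and 0% of all genes, with 1 receptor (Ccr4) and 1052 genes at an unadjusted p under 0.05. The intervals were wide, such as -1.19 to 0.35 log2 for Ccr2 and -0.50 to 0.91 for S1pr1 (95% intervals). The difference was not called for any member without rapamycin Atg7-/- replicates 1 and 3, the values being 0.07 for Cxcr4, -0.44 for Cxcr5, -0.40 for Cxcr6, -0.43 for Ccr2, -0.44 for Ccr4, 0.60 for Ccr6, 0.34 for Ccr7, -0.13 for Ccr8 and 0.26 for S1pr1 (adjusted p of 0.424 or more).

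A comparison chosen after the data were seen set rapamycin Atg7-/- cells against untreated Atg7+/- cells. Of the 9 receptors 7 were called lower and 0 higher by limma's test, with 7 at an unadjusted p under 0.05, where 8.56% of all genes were called lower and 9.02% higher. The arrays did not overlap for the same 7 receptors and for 21% of all genes. Cxcr4 was still lower than in untreated controls by a log2 difference of -0.65 (adjusted p = 0.00213), and Ccr2, Cxcr6 and Ccr6 differed by -1.51, -1.26 and -0.94. Ccr4 (0.26, 95% interval -0.01 to 0.54) and S1pr1 (0.00, 95% interval -0.50 to 0.50) were not called. Without rapamycin Atg7-/- replicates 1 and 3, 6 members were called, Ccr7 being lost (adjusted p = 0.137), with -0.79 for Cxcr4, -1.53 for Ccr2, -1.20 for Cxcr6, -0.69 for Ccr6, 0.30 for Ccr4 and 0.05 for S1pr1.

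**Figure D3:**
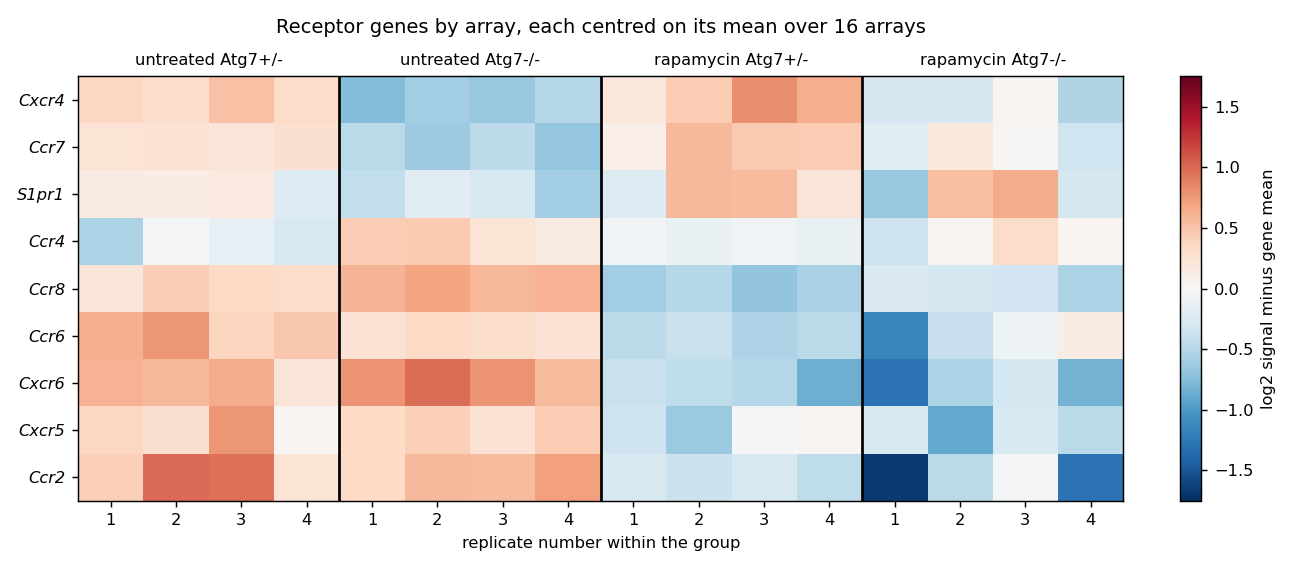
Log2 signal of each receptor gene (rows) on each array (columns, by group and replicate number), minus the mean of that gene over the 16 arrays. Red is above and blue below the gene's mean. Cxcr4 and Ccr7 are blue in untreated Atg7-/- cells, the lower 5 rows turn mostly blue with rapamycin, and rapamycin Atg7-/- replicate 1 is the lowest array of its group for 5 of the 9 genes.

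Profiles over the 16 arrays were compared between genes. Only for Cxcr4 and Ccr2, of the receptors called in a comparison, was the nearest gene another of the 9 receptors. Likeness was measured as the root mean square difference of centred log2 values, where a lower value is more alike, and it is a description that pools treatment and genotype differences shared by all genes on these arrays. Predicted genes, clones, antigen receptor segments, small RNA genes and olfactory receptor genes were left out of the search by name. Of the other genes tested Ccr7 was nearest to Cxcr4 (0.21, beside a root mean square deviation of 0.498 of Cxcr4 from its own mean). Pik3r1, a regulatory subunit of phosphoinositide 3-kinase, followed (0.212). Ccr2 was nearest to Cxcr6 (0.299) and then to Maf, a transcription factor (0.311). The closest pairs among the receptors were Cxcr4 with Ccr7 (0.21), Ccr7 with S1pr1 (0.296), Cxcr6 with Ccr2 (0.299) and Cxcr6 with Ccr8 (0.338), and the most unlike pair was Cxcr4 with Cxcr6 (0.956). For Ccr8 the nearest genes were Furin, a proprotein convertase (0.144), and Adarb1, an RNA editing enzyme (0.174). For Ccr7 they were Tecpr1 (0.153), an autophagy protein, and Zc3hav1 (0.16), an antiviral protein. For Ccr4 they were Etv6 (0.135) and Fam3c (0.144), for Ccr6 Tspan31 (0.173) and Ptpn5 (0.177), for Cxcr5 Dapk3 (0.18) and Sec14l1 (0.203), and for Cxcr6 Septin9 (0.24) and Acap1 (0.257).

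Other chemokine receptors gave no genotype calls. Of 16 listed, 11 were tested, and Ccr1, Ccr1l1, Ccr3 and Ackr1 were too dim. Rapamycin went with lower Cxcr3, the receptor for the interferon-induced chemokines, by differences of -0.84 log2 in Atg7+/- cells (adjusted p = 0.000317) and -1.19 in Atg7-/- cells (adjusted p = 8.4e-06). Xcr1, the receptor for Xcl1, was lower by differences of -1.10 in both genotypes (adjusted p = 0.000251 and 0.000146), and Cxcr2, a receptor best known on neutrophils, by -0.63 in Atg7-/- cells (adjusted p = 0.0179). Ccr9, the receptor that guides T cells to the small intestine, rose by 0.48 and 0.46 (adjusted p = 0.0194 and 0.0171). In all, 1 was called higher and 2 lower in Atg7+/- cells and 1 higher and 3 lower in Atg7-/- cells, with medians of -0.20 and -0.30 log2, where the shares over all genes were 6.03% higher and 8.11% lower in Atg7+/- and 8.83% higher and 11.1% lower in Atg7-/- cells. The list had, without rapamycin Atg7-/- replicates 1 and 3, 0 higher and 4 lower in Atg7-/- cells by limma's test, Ccr9 being lost (0.34, adjusted p = 0.129) and Ccrl2 added (-0.45, adjusted p = 0.0466). In RefSeq's gene order on chromosome 9 Cxcr6 lies beside Xcr1 and on its other side beside Fyco1, with Ccr9 next beyond. The differences along that stretch were thus opposite in sign, and Fyco1 gave 0.23 and 0.15.

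Of 12 further receptors for sphingosine-1-phosphate, oxysterols and other lipid or mucosal cues, 10 were tested. Gpr183, the oxysterol receptor that places cells at the edge of follicles, rose by 0.53 log2 in untreated Atg7-/- cells (10.02 to 10.55, adjusted p = 0.00076). Gpr18 was called higher in Atg7-/- cells under rapamycin (0.57, adjusted p = 0.0257). It also rose with rapamycin in both genotypes (0.43 and 0.66), while Gpr171 was lower (-0.62 and -0.60). These calls of Gpr18 and Gpr171 held without rapamycin Atg7-/- replicates 1 and 3, where Gpr15 was also called lower with rapamycin in Atg7-/- cells (-0.74, adjusted p = 0.00797). The other S1P receptors S1pr2, S1pr4 and S1pr5 were not called in the 4 comparisons by genotype or by rapamycin, and S1pr3 was too dim. List medians in the genotype comparisons were -0.07 and -0.03 log2. Over all genes 1.75% were called higher between untreated genotypes and 1.91% under rapamycin. With rapamycin 6.03% of all genes were called higher and 8.11% lower in Atg7+/- cells, and 8.83% and 11.1% in Atg7-/- cells.

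Selectins, integrins and adhesion molecules had 18 of 19 listed genes tested. None was called between untreated genotypes by limma's test, the 2 smallest p-values being those of Itga4 (-0.28, adjusted p = 0.0761) and Cd44 (0.33, adjusted p = 0.101). Under rapamycin Itgb2, the common chain of leukocyte integrins, was higher (0.51) and Itga4 (-0.45) and Itgb8 (-0.47) lower in Atg7-/- cells. All 3 calls were lost without rapamycin Atg7-/- replicates 1 and 3, where Itgb2 gave 0.44, Itga4 -0.45 and Itgb8 -0.29 (adjusted p = 0.151, 0.0581 and 0.183). Rapamycin went with lower levels of 4 genes in Atg7+/- cells and of 7 in Atg7-/- cells, where 8.11% and 11.1% of all genes were called lower. Without the same 2 arrays 6 were lower in Atg7-/- cells, Cd44 being lost (-0.20, adjusted p = 0.274). Itgae, the integrin chain that binds E-cadherin, had differences of -0.79 and -0.85, and Itgb2 -0.75 and -0.56. Itgal, the partner of Itgb2 in LFA-1, was lower by a difference of -0.76 (adjusted p = 9.46e-05) in Atg7+/- cells and of -0.49 (adjusted p = 0.0019) in Atg7-/- cells. Icam2 alone was called higher, by 0.86 in Atg7-/- cells (adjusted p = 0.000919). Medians were -0.24 and -0.26 log2, beside -0.035 and -0.04 over all genes.

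**Figure D4:**
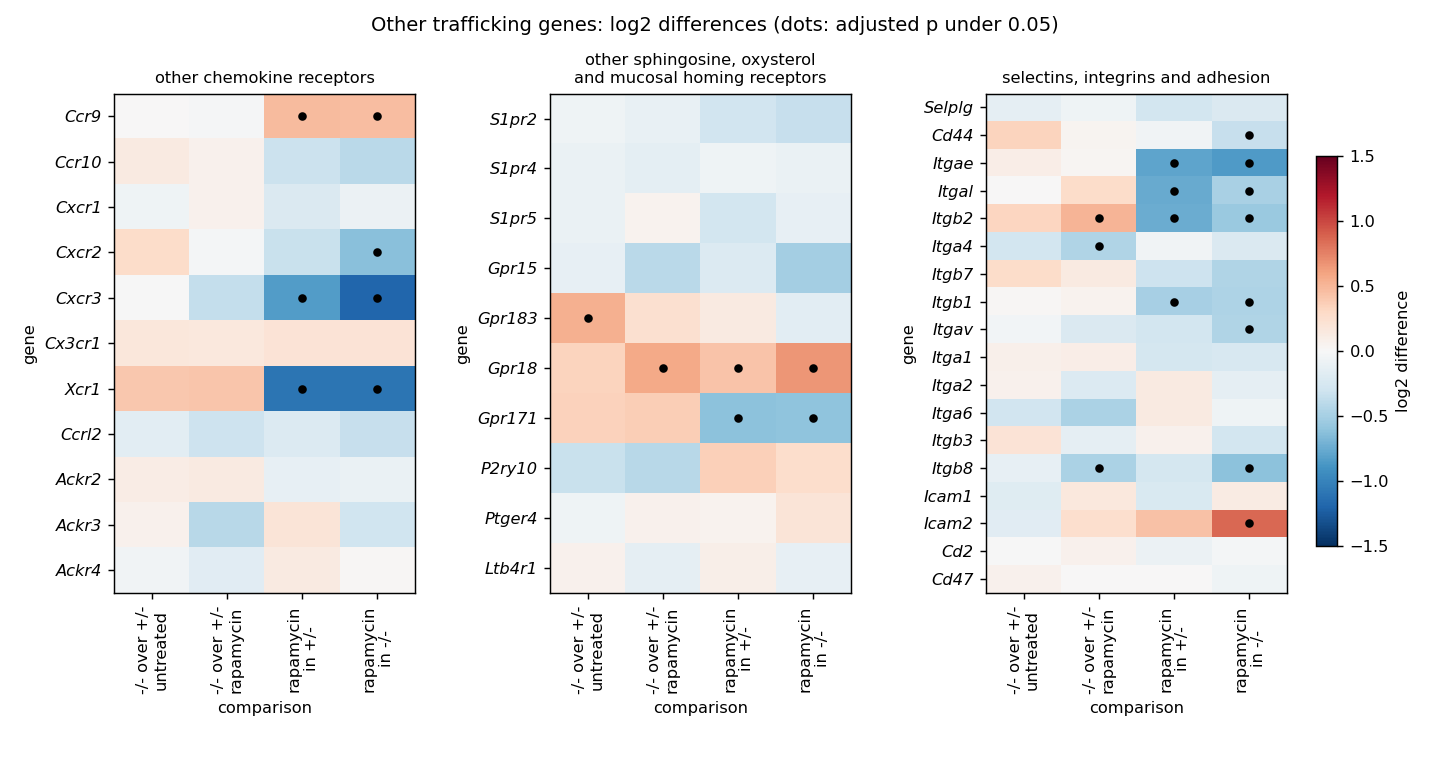
Log2 differences of genes in 3 further lists of trafficking receptors and adhesion molecules (rows) in 4 comparisons (columns), coloured from blue (lower) to red (higher). Dots mark an adjusted p under 0.05 over all genes tested. Cxcr3, Xcr1, Itgae and Itgb2 are lower with rapamycin in both genotypes, and Ccr9 and Gpr18 are higher.

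Of the genes for ligands of the 9 receptors and for making or exporting sphingosine-1-phosphate, 14 of 17 listed were tested. Ccl1, the ligand of Ccr8, was the one called between genotypes, higher in Atg7-/- cells by 0.79 log2 untreated (5.14 to 5.93, adjusted p = 0.00116) and by 0.70 under rapamycin (adjusted p = 0.00616). The second call was lost without rapamycin Atg7-/- replicates 1 and 3 (0.57, adjusted p = 0.0787). Over all genes tested 1.75% were called higher between untreated genotypes and 1.91% under rapamycin. With rapamycin Ccl1 (-0.42) and Spns2, a sphingosine-1-phosphate exporter (-0.43), were called lower in Atg7-/- cells, with or without replicates 1 and 3. That was 2 of the 14 genes, where 11.1% of all genes were called lower. In Atg7+/- cells none was called by limma's test, Ccl1 giving -0.33 (adjusted p = 0.0649) and Cxcl13 -0.37 (adjusted p = 0.0517).

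Of 27 genes for receptor signalling, desensitization and migration, 24 were tested. Rgs2, which shortens G protein signals, was called lower in Atg7-/- cells, by differences of -0.99 untreated (adjusted p = 0.0397) and -1.0 under rapamycin (adjusted p = 0.0385), and no other gene of the list was called by genotype. With rapamycin 1 rose and 6 fell in Atg7+/- cells, and 2 rose and 7 fell in Atg7-/- cells, where 6.03% of all genes rose and 8.11% fell in Atg7+/- and 8.83% rose and 11.1% fell in Atg7-/- cells. With rapamycin Atg7-/- replicates 1 and 3 left out, 2 rose and 4 fell in Atg7-/- cells, Coro1a (-0.25), Dock2 (-0.19) and Dock8 (-0.23) being lost, and the genotype call of Rgs2 under rapamycin held (-0.88, adjusted p = 0.0297). Among those that fell in both were Pik3cg, the kinase downstream of chemokine receptors (-0.81 and -1.03), Rac2, a GTPase of the migrating cell's actin (-0.76 and -0.66), and Arrb2, an arrestin that desensitizes receptors (-0.71 and -0.70). Cd69, which binds S1pr1 and removes it from the surface, rose in both (0.30 and 0.47), and Grk6, a receptor kinase, rose in Atg7-/- cells (0.60, adjusted p = 0.000368).

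Transcription factors linked to homing receptors had 23 of 25 listed genes tested. In untreated Atg7-/- cells Batf (0.60, adjusted p = 0.0088) and Prdm1 (0.68, adjusted p = 0.0141), factors of effector Treg cells, were higher and Foxp3 lower. Under rapamycin Batf (0.59) and Tbx21 (0.96) were higher and Rora (-0.44) and Bcl6 (-0.57) lower in Atg7-/- cells. Of these 4 only Tbx21 was called without rapamycin Atg7-/- replicates 1 and 3 (0.95, adjusted p = 0.0424), the adjusted p of Batf, Rora and Bcl6 being 0.0831, 0.0763 and 0.066. Rapamycin went with higher Bach2, a factor that restrains effector genes, in both genotypes (0.63 and 0.70), and with lower Maf (-0.59 and -0.90). Tbx21 was called lower with rapamycin in Atg7+/- cells (-0.80, adjusted p = 0.00487) and Prdm1 in Atg7-/- cells (-0.90, adjusted p = 0.000363). Klf2, known to maintain S1pr1 in T cells, rose in Atg7-/- cells by 0.74 (7.19 to 7.92, adjusted p = 0.000777), while its difference in Atg7+/- cells was 0.39 and not called. Between untreated genotypes Klf2 gave -0.33 and Foxo1, a factor upstream of Klf2 and Ccr7, gave -0.17, neither called. Counts for the list under rapamycin were 2 higher and 4 lower in Atg7+/- cells and 5 higher and 5 lower in Atg7-/- cells, beside 6.03% and 8.11% of all genes in Atg7+/- and 8.83% and 11.1% in Atg7-/- cells. Without the 2 arrays named, 3 were higher and 5 lower in Atg7-/- cells, Foxo3 (0.45) and Lef1 (0.49) being lost.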

How the data were processed

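Gene expression was measured on 16 arrays in 4 groups of 4. The deposited table holds log2 signals of 41345 probe sets on each array. The submitters' processing notes name RMA and Partek 6.6 but give no order or settings. The log base is not written in the file and was taken as 2. The build of the annotation is not given in the sources used here.

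From these values the probe sets with 1 symbol in the platform annotation (23521) were kept, and for each of 22180 genes the brightest was used. Genes whose highest group mean exceeded 3.549, the 30th percentile of all values, were tested (16760). Group means were estimated from all 16 arrays together with limma 3.58.1 (lmFit, eBayes; R 4.3.3, 12 residual and 5.64 prior degrees of freedom), two-sided, with Benjamini-Hochberg adjustment over the 16760 genes and a threshold of 0.05. Each gene has a single residual variance in this fit, although rapamycin Atg7-/- arrays varied more. The fit was tested on simulated data. Arrays give no read depth, so their number limits the precision.

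The receptors and the further lists were chosen with earlier results of these data known. Named genes were all 9 receptors, and of each further list up to 4 called genes with the largest change or, with none called, the 2 with the smallest p. Other genes were named after their values were seen (Fyco1, Cd69, Klf2 and Foxo1 where outside that rule, and genes whose call changed when rapamycin Atg7-/- replicates 1 and 3 were left out). The 2 nearest genes were named for each receptor called in a comparison. Some same-numbered arrays of different groups deviated together and others did not (correlation -0.0829 to 0.358 over 24 pairs, 6 above 0.1). The mean correlation was 0.0425, beside -0.0139 for arrays of different numbers. The labels name no pairing by number, and replicate numbers were not taken as pairs in the main fit. Alternatives were the filter, normalization, variance model, array weights, probe set rule, replicate block, samples in the fit and each array left out. Leaving out both rapamycin Atg7-/- replicates 1 and 3 was added after the data were seen. No value column was left unmapped. Promoter sequences are RefSeq's (GRCm38.p6). The motif search was planned for Ccr7 and S1pr1, which had no window in the sequences used. The motifs TGANTCA and TTCNNNGAA, and all the receptor windows searched, were added after the data were seen.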

Additional observations from a re-analysis of the deposited data

Results flagged for a closer look

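S1pr1 in untreated Atg7+/- cells had 1 array that stood apart. Replicate 4 read 7.69 where the others read 8.05 to 8.09, a gap of 0.912 of the group's whole range, above Dixon's critical value for 4 samples. It was 1 of 36 combinations of receptor and group examined, and chance flags about 1 in 20. What sets this array apart in S1pr1 was not tested.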

How the results depend on the processing

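With rapamycin, the count of receptors lower in Atg7-/- cells (2 members) was 1 with arrays centred on their median, 0 with only the 2 groups in the fit, 1 to 2 members when single arrays were left out and 1 without rapamycin Atg7-/- replicates 1 and 3. For rapamycin in Atg7+/- cells 3 to 5 members were called when single arrays were left out. All other counts of members stayed within 1.5 times. The replicate block left the member counts at 3, 2, 5 and 0 (difference of the rapamycin effects) and raised that for rapamycin in Atg7-/- cells to 7 members, Cxcr4 being added (0.36, adjusted p = 0.0367).

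Signs turned for differences near 0. With quantile normalization Cxcr5 gave 0.03 between untreated genotypes. When single arrays were left out, that Cxcr5 value ran from -0.11 to 0.14 and Ccr2 from -0.24 to 0.008. Between genotypes under rapamycin S1pr1 ran from -0.43 to 0.0073, Ccr4 from -0.003 to 0.22 and Ccr6 from -0.08 to 0.35. S1pr1 in rapamycin Atg7-/- over untreated Atg7+/- cells was 0.01 with median centring, 0.05 without rapamycin Atg7-/- replicates 1 and 3 and -0.20 to 0.23 with single arrays left out. The cause was not tested.

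Over all genes, counts of called genes ran from 284 to 974 between untreated genotypes (527 genes) and from 20 to 886 under rapamycin (543 genes), the lowest with only the 2 groups in the fit. They fell to 1559 genes without rapamycin Atg7+/- replicate 2 for rapamycin in Atg7+/- cells (2370 genes). Median centring gave 165 genes higher and 153 lower between untreated genotypes, 253 and 97 genes under rapamycin, and 667 and 1449 genes for rapamycin in Atg7+/- cells. The difference of the rapamycin effects called 1 gene without rapamycin Atg7-/- replicate 2 and 4 genes without replicates 1 and 3.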
